A study of Mus musculus with 9 samples.

Results

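Plk2 and p53 response genes were followed as a set of 10: Plk2, Plk3, Cdkn1a, Mdm2, Gdf15, Btg2, Ccng1, Sesn2, Trp53inp1 and Gadd45a. They were taken by gene name from the deposited table of 55451 genes, each name matched 1 row, and all 10 passed the filter on low values that left 11933 genes for testing. RNA sequencing had been done on HEI-OC1 cells, an immortalised mouse cell line from the organ of Corti. The cells carried an empty vector (EV), human wild-type LMX1A (WT) or the human LMX1A frameshift form c.915dup (c915dup), with 3 libraries in each group. LMX1A is a LIM-homeodomain transcription factor, and c.915dup is the variant of a hearing-loss study. Every group was transduced, was grown at 37 °C and gave total RNA for 1 µg TruSeq libraries, and no untransduced group was used here. The promoter that drives the construct, the time after transduction and whether a group was 1 clone or a pool are not given. Nor do the labels tie the 3 libraries of each group to separate cultures, and the spread that the p-values rest on may be technical.

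The transcription factor p53 is held low by the ubiquitin ligase Mdm2, which is itself a p53 target, and stress that stabilises p53 raises genes that stop the cell cycle, repair DNA, tune metabolism or feed back on p53. Plk2 and Plk3 are polo-like kinases, relatives of the mitotic kinase Plk1. They can be induced through p53 and also within minutes to hours of growth factor or serum stimulation, as immediate early genes are. Several of the 10 genes have further inputs: Gdf15 and Sesn2 can be raised by Atf4 in the integrated stress response, and Btg2 and Gadd45a by many growth and stress signals. HEI-OC1 was made from a mouse strain that carries a temperature-sensitive SV40 large T antigen, a viral protein that binds p53.

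The promoters of Plk2, Plk3, Btg2, Cdkn1a and Ccng1 are shown with the letters of 2 transcription factor motifs. They are shown for the matches they hold. Mdm2 and Gadd45a, which hold matches to parts of these motifs, are not shown. Each window runs from 250 bases before to 50 bases after the annotated start of a transcript (RefSeq, GRCm38.p6), 5′ to 3′ on the strand of the gene. For Cdkn1a the window at the most upstream start is shown. Capitals mark the cAMP response element TGACGTCA in Plk2 and Btg2, its core TGACG in Plk3, and a p53 site in Cdkn1a and Ccng1. The p53 site is a pair of adjacent decamers of the p53 consensus with at most 1 mismatch outside their fixed core letters, a search chosen after the sequences had been seen. The Plk2 window is chr13:110394794-110395093 (+), the Plk3 window chr4:117133914-117134213 (-), the Btg2 window chr1:134079106-134079405 (-), the Cdkn1a window chr17:29090729-29091028 (+) and the Ccng1 window chr11:40755237-40755536 (-).
Plk2: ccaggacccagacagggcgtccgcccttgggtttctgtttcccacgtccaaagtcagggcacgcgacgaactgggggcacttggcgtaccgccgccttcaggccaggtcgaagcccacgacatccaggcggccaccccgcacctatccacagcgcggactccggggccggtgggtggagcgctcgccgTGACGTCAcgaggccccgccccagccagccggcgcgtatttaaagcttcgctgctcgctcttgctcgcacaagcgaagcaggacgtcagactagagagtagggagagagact
Plk3: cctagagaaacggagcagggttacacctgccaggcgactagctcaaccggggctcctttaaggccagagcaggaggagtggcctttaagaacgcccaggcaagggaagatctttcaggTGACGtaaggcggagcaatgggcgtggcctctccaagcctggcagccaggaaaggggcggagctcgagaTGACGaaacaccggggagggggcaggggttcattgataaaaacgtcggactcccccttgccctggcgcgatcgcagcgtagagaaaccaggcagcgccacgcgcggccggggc
Btg2: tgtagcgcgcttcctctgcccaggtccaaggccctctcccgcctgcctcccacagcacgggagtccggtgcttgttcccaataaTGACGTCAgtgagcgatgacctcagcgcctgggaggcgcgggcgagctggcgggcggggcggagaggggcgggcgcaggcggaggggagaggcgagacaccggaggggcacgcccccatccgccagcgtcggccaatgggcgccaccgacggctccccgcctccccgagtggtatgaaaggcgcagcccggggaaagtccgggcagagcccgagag
Cdkn1a: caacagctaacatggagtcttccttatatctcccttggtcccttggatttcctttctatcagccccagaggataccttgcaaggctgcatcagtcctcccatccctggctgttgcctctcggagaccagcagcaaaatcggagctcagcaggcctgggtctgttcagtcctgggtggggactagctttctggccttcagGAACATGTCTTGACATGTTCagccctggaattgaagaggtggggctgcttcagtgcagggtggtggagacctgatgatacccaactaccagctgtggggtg
Ccng1: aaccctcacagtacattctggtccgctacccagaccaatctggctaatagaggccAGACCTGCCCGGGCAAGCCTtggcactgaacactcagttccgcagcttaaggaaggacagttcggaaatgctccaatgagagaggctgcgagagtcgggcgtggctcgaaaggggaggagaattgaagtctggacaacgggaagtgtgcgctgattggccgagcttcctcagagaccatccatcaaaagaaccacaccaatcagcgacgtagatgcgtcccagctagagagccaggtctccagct

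Both strands were searched in 32851 windows, of which 11 belonged to the 9 members that matched by symbol (Trp53inp1 did not match). TGACGTCA lay at -62 to -55 from the start of Plk2 and at -166 to -159 from that of Btg2, and 1.79% of all windows held it. The core TGACG, which TGACGTCA contains, was in 4 member windows (Plk2, Plk3, Btg2 and Mdm2) and in 20.8% of all windows. A single p53 decamer was also in 4 member windows (Cdkn1a, Ccng1, Mdm2 and Gadd45a), for Cdkn1a and Ccng1 within the p53 site as well, and in 8.36% of all windows. The p53 site lay at -51 to -32 in Cdkn1a and at -195 to -176 in Ccng1, and 0.0670% of all windows held one. For Cdkn1a the position is from the most upstream start, and no window at another Cdkn1a start held the site. With no mismatch allowed the p53 site was in 0 member windows and in 0.00913% of all. The serum response motif called the CArG box (1.63% of all windows) and the Atf4 motif TGATGNAA (3.97%) were in 0 of the 11. A match is a run of letters in this window and not a measured binding site.

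The construct was found where the labels place it. Human LMX1A was listed at 0 in the 3 EV libraries, at 131 to 133 FPKM in WT and at 149 to 170 FPKM in c915dup. Mouse Lmx1a was listed at 0 in all 9. FPKM stands for fragments per kilobase and per 1e6 fragments, a unit inferred for the deposited values. The labels call the line a cochlear hair cell line, but 1 of 10 hair cell markers, Myo6, reached 1 FPKM, and Atoh1, Pou4f3, Slc26a5, Otof and Ocm were at 0 in every library. Mesenchymal markers reached 1 FPKM in 6 of 7 cases, with sums of 1848 to 2003 FPKM in EV, 1838 to 2043 in WT and 1856 to 1941 in c915dup. Of the other marker lists, 2 of 6 supporting cell, 2 of 3 neuron, 1 of 5 immune, 0 of 4 Schwann and 0 of 3 endothelial genes reached that level. Depth was estimated at 13.03 to 16.08 (1e6 fragments) per library. In each group the library whose column is numbered 1 stood apart: mitochondrial genes took 4.36% to 5.49% of FPKM in these 3 libraries and 1.69% to 2.17% in the other 6. Results below are therefore given with group means alone and, where the call changes, with the column number as a replicate block and with a single term for libraries numbered 1 against the others. The c915dup columns are numbered 1, 3 and 4, so library 4 carries no weight under the block by number.

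Levels per length spread over more than an order of magnitude in EV cells. In descending order of mean FPKM the genes stood as Plk2 (78.2 ± 2.84, SD, n = 3), Ccng1 (69.2 ± 6.50), Cdkn1a (31.2 ± 2.22), Mdm2 (26.7 ± 0.081), Gadd45a (24.4 ± 5.15), Btg2 (16.3 ± 2.59), Trp53inp1 (15.3 ± 1.37), Sesn2 (10.1 ± 0.50), Plk3 (5.67 ± 0.57) and Gdf15 (2.85 ± 0.077). The libraries of neighbours overlapped between Plk2 and Ccng1, Mdm2 and Gadd45a, Gadd45a and Btg2, and Btg2 and Trp53inp1, and were apart in the other 5 pairs of neighbours. Plk2 lay above 94.0% of the tested genes and Plk3 above 31.5%, so the kinases sit far apart in abundance. The rarest gene, Gdf15, rests on roughly 55.6 to 100.5 fragments per library, Plk3 on 169 to 421 and Plk2 on 2926 to 5511. These are approximations from FPKM, the length of the longest coding transcript and the estimated depth.

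**Figure D1:**
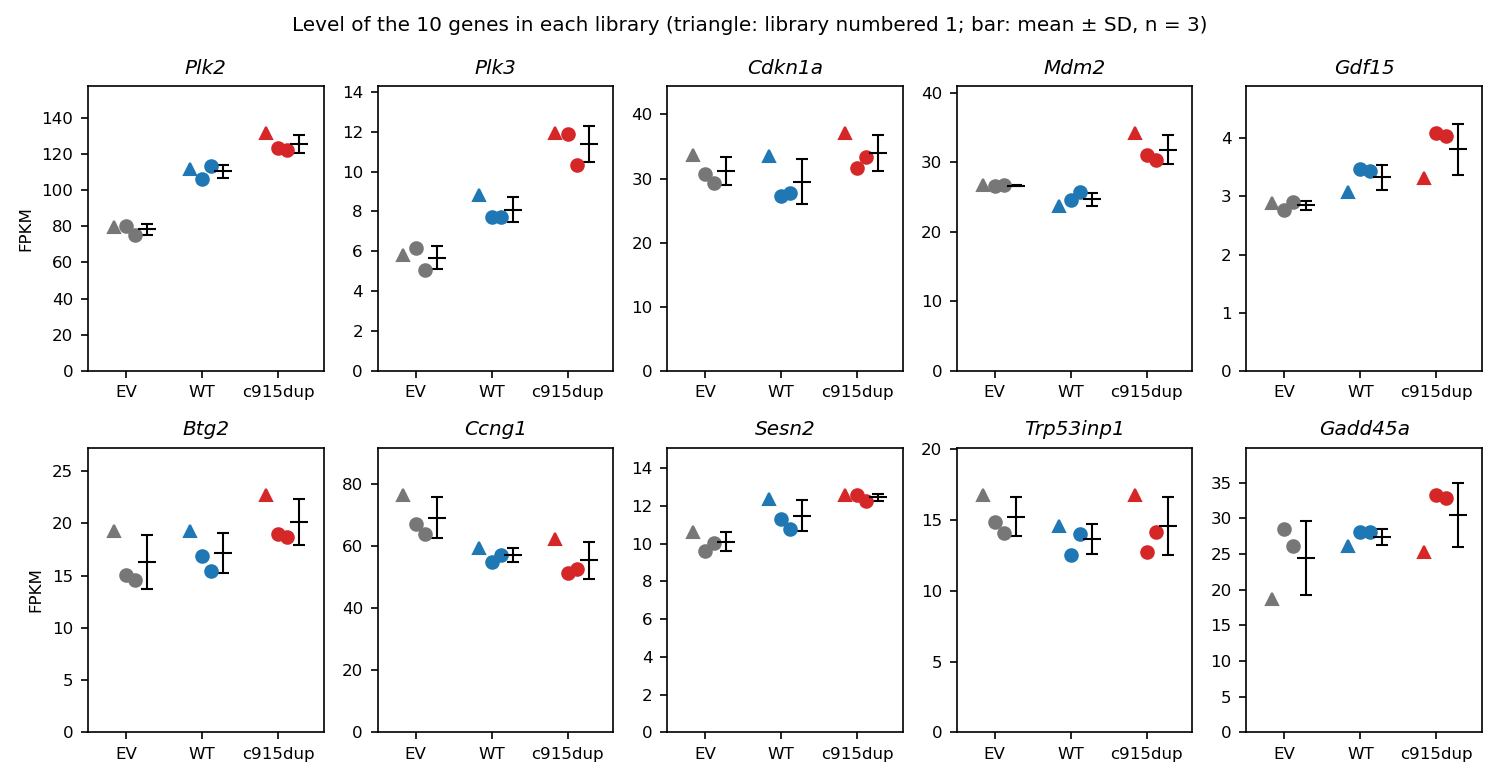
FPKM of each of the 10 genes in the 9 libraries, by group, with 1 panel per gene and a linear axis from 0. Triangles are libraries numbered 1, circles the others, and bars the mean ± SD of 3 libraries. Plk2 and Plk3 step up from EV to WT to c915dup with no overlap between groups, whereas the triangle is the highest point of every group for Cdkn1a, Btg2, Ccng1 and Trp53inp1.

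The polo-like kinase gene Plk2 (chromosome 13, 110395046 to 110400844, plus strand, GRCm38) rose with both forms of LMX1A. It stood at 79.5, 80.2 and 75.0 FPKM in the EV libraries, at 112, 106 and 113 in WT and at 131, 123 and 122 in c915dup. Every WT library lay above every EV library and every c915dup library above every WT library. The mean of 110 ± 3.56 FPKM in WT was 1.41-fold that of EV, or 0.49 ± 0.05 in log2 (SE; limma adjusted p = 0.0032). In c915dup the mean of 126 ± 4.90 FPKM was 1.61-fold that of EV (log2 0.68 ± 0.05, adjusted p = 0.00014). Both calls held in 18 of 18 alternative fits, with adjusted p up to 0.030 for WT and up to 0.0022 for c915dup. The difference of 0.18 ± 0.05 between c915dup and WT did not pass (adjusted p = 0.22, 0.11 with the replicate block and 0.024 with the term for libraries numbered 1). In these bulk samples, more cells with the transcript and more RNA per cell cannot be told apart, here or for any other gene.

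Its stress-responsive relative Plk3 (chromosome 4, 117128655 to 117133963, minus strand) showed the same order of groups at a lower level. The EV libraries held 5.80, 6.17 and 5.05 FPKM, the WT libraries 8.80, 7.72 and 7.72, and the c915dup libraries 11.9, 11.9 and 10.3. The 3 groups did not overlap, and the c915dup mean of 11.4 ± 0.91 FPKM was 100.4% above the EV mean. Plk3 rose in c915dup over EV (log2 0.89 ± 0.09, limma adjusted p = 0.00094), a call that held in 18 of 18 alternatives. Between WT and EV the 0.45 ± 0.09 did not pass (adjusted p = 0.12), and it passed with the replicate block (0.033) and with the term for libraries numbered 1 (0.015). The 0.45 ± 0.09 between c915dup and WT had an adjusted p of 0.085, and of 0.032 and 0.0096 with those terms. Of the 10 genes, Plk2 and Plk3 had all 3 groups apart in the order EV, WT, c915dup, as did 0.696% of all tested genes. Group means lay in that order in 6 of 10 genes and in 18.3% of all.

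Of the p53 feedback genes, Mdm2 (chromosome 10, 117688875 to 117710758, minus strand), the ligase that degrades p53, set c915dup apart from both other groups. It stood at 26.7, 26.6 and 26.7 FPKM in EV, at 23.7, 24.6 and 25.7 in WT and at 34.1, 31.0 and 30.3 in c915dup. The c915dup libraries lay above all others and the WT libraries below the EV libraries. Set against WT, c915dup was 0.35 ± 0.06 higher in log2 and missed the threshold (limma adjusted p = 0.054), while it passed with the replicate block (0.032), with the term for libraries numbered 1 (0.0042), with median-ratio scaling (0.027) and with quantile normalization (0.034). Against EV, c915dup differed by 0.25 ± 0.06 (adjusted p = 0.11, which became 0.072 under the block and 0.020 under the term). WT differed from EV by -0.11 ± 0.06 (adjusted p = 0.89).

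Ccng1 (chromosome 11, 40748552 to 40755311, minus strand), whose cyclin G1 binds a phosphatase that acts on Mdm2, was the member whose libraries lay below EV without overlap in both LMX1A groups. The EV libraries held 76.5, 67.2 and 63.9 FPKM, the WT libraries 59.3, 54.8 and 57.2, and the c915dup libraries 62.3, 51.5 and 52.5. The LMX1A groups overlapped each other. The log2 differences of -0.27 ± 0.09 for WT and -0.32 ± 0.09 for c915dup did not pass (limma adjusted p = 0.56 and 0.17). With the replicate block they had adjusted p = 0.054 and 0.038, and with the term for libraries numbered 1 they had 0.013 and 0.0022.

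The cell cycle brakes gave no call with group means alone. Cdkn1a (chromosome 17, 29090976 to 29100727, plus strand) encodes p21, an inhibitor of cyclin-dependent kinases and the best known p53 target. Its values were 33.6, 30.7 and 29.3 FPKM in EV, 33.6, 27.2 and 27.7 in WT, and 37.0, 31.7 and 33.3 in c915dup, and every pair of groups overlapped. The log2 difference was -0.08 ± 0.09 for WT and 0.12 ± 0.09 for c915dup against EV (limma adjusted p = 0.999 and 0.70). Between c915dup and WT it was 0.20 ± 0.09 (adjusted p = 0.49, 0.17 with the replicate block and 0.029 with the term for libraries numbered 1).

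Btg2 (chromosome 1, 134075170 to 134079120, minus strand), an antiproliferative partner of mRNA deadenylases, stood at 19.3, 15.1 and 14.6 FPKM in EV, at 19.3, 16.8 and 15.4 in WT and at 22.7, 18.9 and 18.7 in c915dup. The library numbered 1 was the highest of each group, and the groups overlapped. Against EV the c915dup difference was 0.29 ± 0.12 (limma adjusted p = 0.38), and it passed with the replicate block (0.04995, at the threshold) and with the term for libraries numbered 1 (0.0073). Between c915dup and WT it was 0.22 ± 0.12 (adjusted p = 0.57, 0.14 with the block and 0.036 with that term). Gadd45a (chromosome 6, 67035096 to 67037457, minus strand), a stress-induced regulator of growth arrest and DNA repair, stood at 18.6, 28.5 and 26.1 FPKM in EV, at 26.1, 28.0 and 28.1 in WT and at 25.3, 33.3 and 32.8 in c915dup. Here the library numbered 1 was the lowest of each group. The difference between c915dup and EV was 0.32 ± 0.15 (adjusted p = 0.47, which became 0.17 under the block and 0.038 under the term). With 1 library left out it ran from 0.14 without EV replicate 1, the lowest EV library, to 0.44 without c915dup replicate 1. Without the 3 libraries numbered 1 it was 0.27 (limma adjusted p = 0.037).

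The secreted and metabolic stress genes Gdf15 and Sesn2 had higher values in both LMX1A groups, in no case past the threshold with group means alone. Gdf15 (chromosome 8, 70629393 to 70632456, minus strand), a stress-induced secreted cytokine, stood at 2.88, 2.76 and 2.91 FPKM in EV, at 3.08, 3.46 and 3.43 in WT and at 3.31, 4.08 and 4.04 in c915dup. Both LMX1A groups lay above EV without overlap. Against EV the log2 difference was 0.17 ± 0.09 in WT (limma adjusted p = 0.88). In c915dup it was 0.32 ± 0.09 (adjusted p = 0.17, 0.21 with the replicate block and 0.037 with the term for libraries numbered 1). Sesn2 (chromosome 4, 132492032 to 132510501, minus strand), a leucine-binding inhibitor of mTORC1, stood at 10.6, 9.63 and 10.0 FPKM in EV, at 12.4, 11.3 and 10.8 in WT and at 12.5, 12.6 and 12.2 in c915dup. It too lay above EV in both LMX1A groups without overlap. The difference was 0.17 ± 0.06 in WT (adjusted p = 0.73). In c915dup it was 0.28 ± 0.06 (adjusted p = 0.098, 0.10 with the replicate block and 0.010 with that term).

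Trp53inp1 (chromosome 4, 11156431 to 11174379, plus strand), whose protein promotes p53-dependent cell death and autophagy, had the smallest difference between c915dup and EV of the 10 genes. It stood at 16.8, 14.9 and 14.1 FPKM in EV, at 14.6, 12.5 and 14.0 in WT and at 16.8, 12.8 and 14.1 in c915dup, and every pair of groups overlapped. The differences from EV were -0.15 ± 0.10 in WT and -0.07 ± 0.10 in c915dup (limma adjusted p = 0.95 and 0.88), and no replicate term brought one past the threshold. For 4 members an annotated neighbour overlaps the gene: Tctex1d4 opposite Plk3, AC167363.2 opposite Cdkn1a, E230016M11Rik opposite Gadd45a and Gm12981 on the same strand as Sesn2. These neighbours reached at most 0.55, 0.27, 2.04 and 1.05 FPKM, and no source used here says whether reads were counted by strand, so reads may have been shared.

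**Figure D2:**
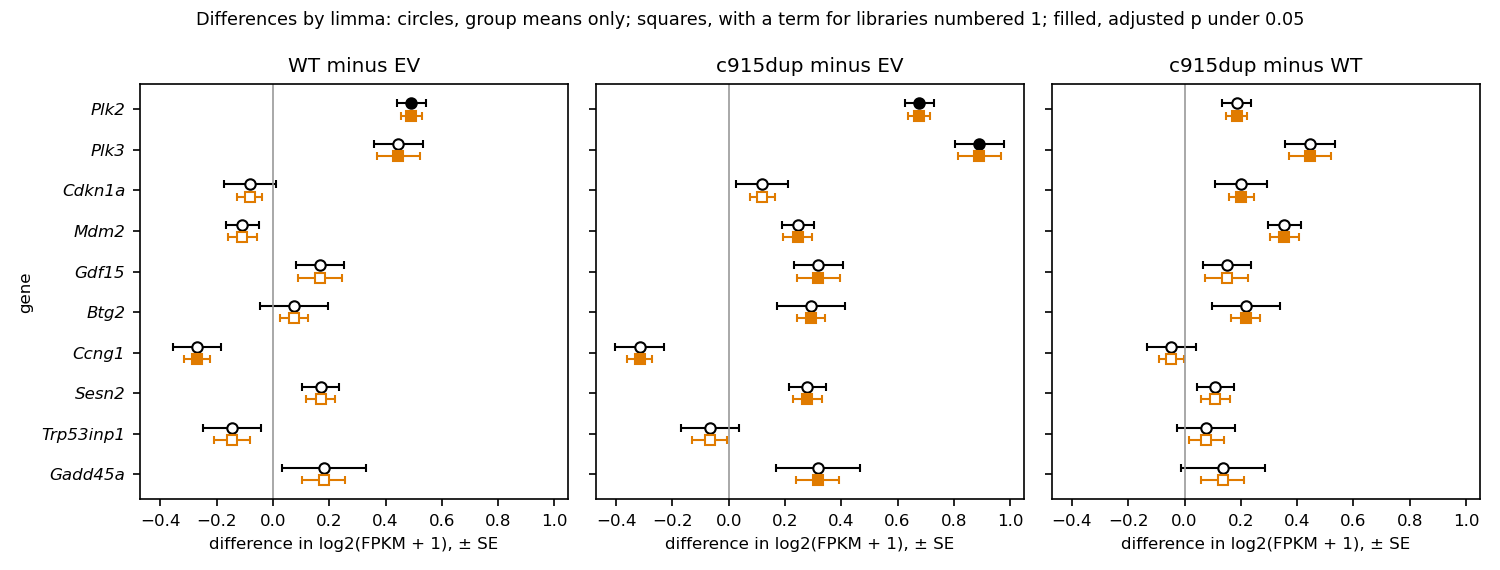
Differences in log2(FPKM + 1) ± SE from limma for the 10 genes in the 3 comparisons. Circles use group means alone, squares add a term for libraries numbered 1, and filled symbols have an adjusted p under 0.05. Filled circles are seen for Plk2 in both comparisons with EV and for Plk3 in c915dup minus EV, while filled squares number 3, 8 and 5 in the 3 panels.

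The members were chosen with earlier results of these data known, so the counts that follow are no independent test. Counted over the set, Plk2 alone passed between WT and EV, so 1 of 10 rose and 0 fell, where 0.352% of all tested genes passed (42 of 11933). With the replicate block 2 were higher and 0 lower (0.804% of all genes passed), and with the term for libraries numbered 1 it was 2 and 1 (1.22%). Without the 3 libraries numbered 1 it was 1 and 0 (0.696%). The libraries of the groups did not overlap in 6 of 10 members, 4 higher and 2 lower, against 12.9% of all genes.

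Between c915dup and EV, 2 of 10 rose, Plk2 and Plk3, and 0 fell, where 1.09% of all genes passed (130). The replicate block gave 3 higher and 1 lower (1.90% of all genes), namely Plk2, Plk3 and Btg2 against Ccng1. The term for libraries numbered 1 gave 7 higher and 1 lower (5.54%), with Cdkn1a and Trp53inp1 not passing. Leaving out the libraries numbered 1 gave 6 and 1 (3.38%). Groups did not overlap in 6 members, 5 higher and 1 lower, against 16.9% of all genes. The median difference of the 10 members was 0.29, beside 0.00 for all tested genes, and it was 0.12 between WT and EV, where all genes had 0.00.

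Between c915dup and WT, 0 of 10 passed by limma, where 0.226% of all genes passed (27). At an unadjusted p under 0.05 were 3 members (Plk2, Plk3 and Mdm2), beside 1244 of all 11933 tested genes. Of these 27 genes 96.3% were higher in c915dup. The share among the genes called was 81.0% of 63 with median-ratio scaling, 81.5% of 54 with quantile normalization, 88.3% of 137 with the replicate block, 65.2% of 574 with the term for libraries numbered 1 and 53.9% of 349 without those libraries. The replicate block gave 2 members higher (Plk3 and Mdm2) and 0 lower (1.15% of all genes), the term for libraries numbered 1 gave 5 and 0 (4.81%), and leaving those libraries out gave 3 and 0 (2.92%). Plk2, Plk3 and Mdm2 were the 3 members whose groups did not overlap, each higher in c915dup, against 16.1% of all genes.

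Members also differed between the libraries numbered 1 and the other 6. Cdkn1a (log2 0.21 ± 0.04, limma adjusted p = 0.0024), Btg2 (0.29 ± 0.04, 0.00078), Ccng1 (0.19 ± 0.04, 0.0047) and Trp53inp1 (0.21 ± 0.05, 0.014) were higher in libraries numbered 1. Gadd45a was lower there (-0.33 ± 0.07, 0.0039). These 5 of 10 stand beside 31.1% of all tested genes that passed, and 2 of 10 had no overlap between the classes, Cdkn1a and Btg2, beside 24.1% of all genes. For Plk2 the difference was 0.05 ± 0.03 and for Plk3 0.10 ± 0.07, and neither passed (adjusted p = 0.25 for each). The mitochondrial share of FPKM, given above, was higher in the same 3 libraries, and its part in the members' levels was not tested. Without these libraries the difference between c915dup and EV was 0.66 for Plk2 and 0.87 for Plk3.

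**Figure D3:**
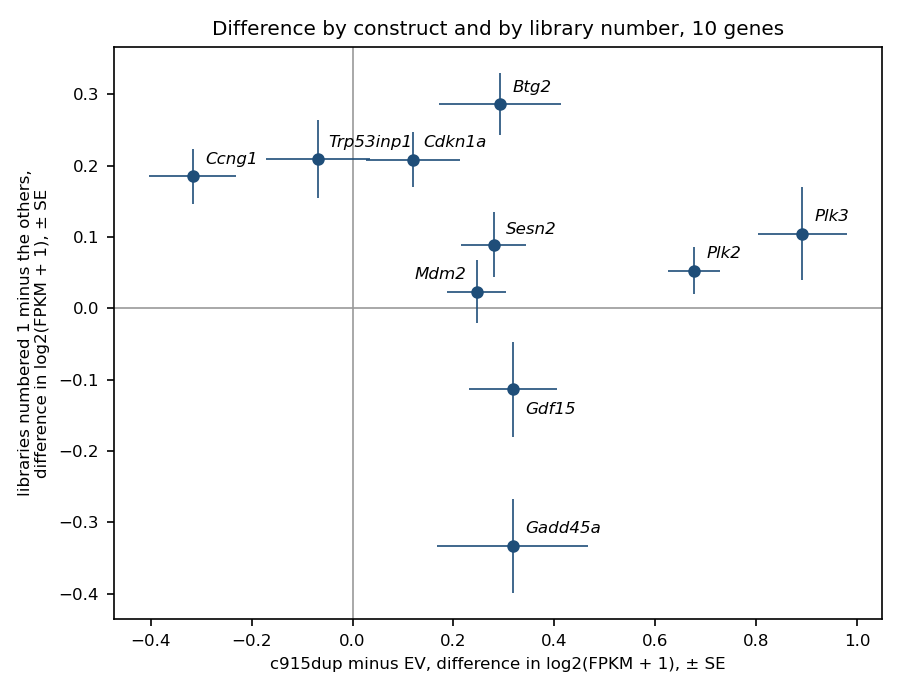
Each of the 10 genes by its difference between c915dup and EV (horizontal) and between libraries numbered 1 and the others (vertical), both in log2(FPKM + 1) ± SE from limma. Plk2 and Plk3 lie far right at 0.68 and 0.89 and near 0 vertically, while Btg2 and Gadd45a lie at similar horizontal values and at 0.29 and -0.33 vertically.

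Of 6 lists of related genes, those of p53 itself are given first. Among p53 and its regulators, 15 of 17 genes were tested and 0 passed in each of the 3 comparisons by limma. At an unadjusted p under 0.05 were 0, 4 and 2 of them, beside 731, 1365 and 1244 of all 11933 tested genes. Trp53 itself, the gene of p53, stood between 50.5 and 56.8 FPKM in the 9 libraries, and Cdkn2a, whose Arf product blocks Mdm2, between 472 and 521. With the term for libraries numbered 1, the checkpoint kinase gene Chek1 was higher and Atm, the gene of a DNA damage kinase, lower in c915dup than in EV (adjusted p = 0.032 and 0.047), and Mdm4, a partner of Mdm2, was higher and Atm lower than in WT (0.029 and 0.021). With the replicate block 0 of the list passed in any comparison, and these 4 values were 0.19, 0.24, 0.16 and 0.14. Of 30 other p53 targets 28 were tested, and the cytokine gene Lif alone rose, in both comparisons with EV. Lif stood at 4.82, 5.27 and 4.83 FPKM in EV, at 7.65, 7.84 and 6.61 in WT (log2 0.48 ± 0.07, adjusted p = 0.027) and at 7.75, 7.97 and 7.75 in c915dup (0.56 ± 0.07, 0.0054). Neither LMX1A group overlapped EV. Without the 3 libraries numbered 1 the WT call was lost (0.44, adjusted p = 0.086) and that of c915dup held (0.55, adjusted p = 0.018). Lif was also the 1 call of this list with the replicate block in each of these comparisons, and with the term for libraries numbered 1 the list had 1 higher and 1 lower in WT and 3 higher in c915dup. In c915dup against WT 0 of 28 passed, with 3 at an unadjusted p under 0.05, and 3 were higher with that term. Of all tested genes that term called 1.22%, 5.54% and 4.81% in the 3 comparisons, and the replicate block 0.804%, 1.90% and 1.15%. The medians of this list were -0.03, 0.02 and 0.08.

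Of the paralogs of the members, 0 of 14 tested passed in each of the 3 comparisons by limma, with 2, 3 and 0 at an unadjusted p under 0.05. Of all 11933 tested genes 731, 1365 and 1244 were under 0.05 unadjusted in the same order. Gadd45g, a relative of Gadd45a, had 38.7, 44.2 and 39.5 FPKM in EV, 43.2, 60.5 and 54.0 in WT and 49.6, 60.9 and 59.1 in c915dup. It passed against EV with the replicate block (adjusted p = 0.049 and 0.011 for WT and c915dup). Ccng2, a relative of Ccng1, had 18.1 to 21.1 FPKM in EV, 15.8 to 17.1 in WT and 16.4 to 16.9 in c915dup, and had adjusted p = 0.049 and 0.037 with the term for libraries numbered 1 (0.11 and 0.12 with the block). The 19 cell cycle genes that p21 lowers through the DREAM repressor complex gave 0 calls, with 2, 7 and 5 at an unadjusted p under 0.05 and medians of 0.06, 0.05 and 0.01. With the term for libraries numbered 1 the transcription factor Foxm1 and the mitotic kinase Cdk1 were higher in c915dup than in EV (adjusted p = 0.0092 and 0.028, against 0.064 and 0.073 with the block).

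Of 15 integrated stress response genes, a list that holds Sesn2 and Gdf15, the pseudokinase gene Trib3 rose in c915dup against EV. It stood at 8.19, 8.01 and 9.13 FPKM in EV, at 11.6, 11.3 and 10.5 in WT and at 10.8, 10.9 and 12.1 in c915dup (log2 0.38 ± 0.07 for c915dup, limma adjusted p = 0.043, and 0.095 with the replicate block). None of the 15 passed between WT and EV or between c915dup and WT. In WT against EV, c915dup against EV and c915dup against WT, 6, 6 and 2 of them were at an unadjusted p under 0.05. Of all 11933 tested genes 731, 1365 and 1244 were. The median differences of these 15 genes were 0.17, 0.23 and 0.06. The term for libraries numbered 1 gave 2, 4 and 1 higher and 0, 0 and 1 lower in the 3 comparisons, Sesn2 and Gdf15 among the 4. With that term 1.22%, 5.54% and 4.81% of all tested genes passed in the same order. Of the 6 lists, that of the immediate early genes had the most calls. Of its 22 genes 6 rose and 1 fell (Fos) in WT against EV, and 13 rose and 0 fell in c915dup against EV. Between c915dup and WT 3 rose and 0 fell. Of all tested genes 0.352%, 1.09% and 0.226% passed in the same order. With the replicate block 10 of the 22 were higher and 3 lower, 18 and 0, and 11 and 0, beside 0.804%, 1.90% and 1.15% of all genes. The median differences of this list were 0.30, 0.56 and 0.29. The lists were chosen with earlier results of these data known, so these counts are no independent test. Whether these genes and Plk2 and Plk3 rose by a shared route was not tested. The orphan nuclear receptor gene Nr4a1 went from 91.5 to 99.3 FPKM in EV through 156 to 168 in WT to 231 to 235 in c915dup, the same order without overlap as Plk2 and Plk3.

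**Figure D4:**
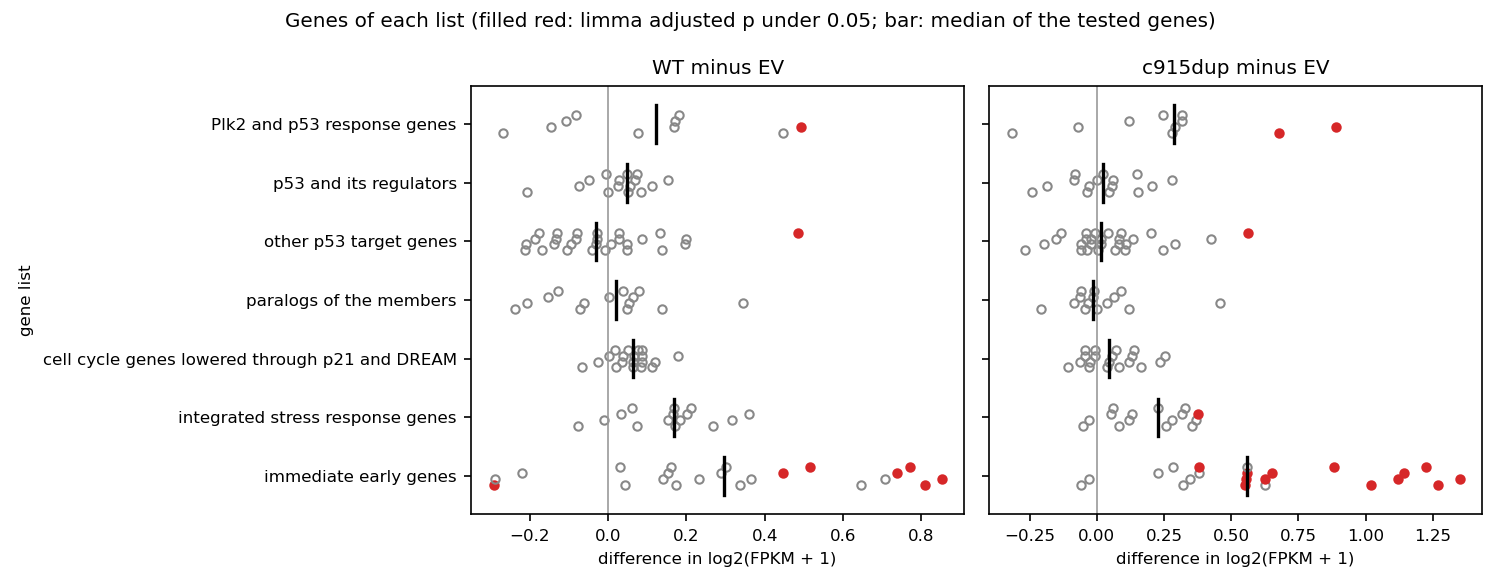
Differences in log2(FPKM + 1) for the tested genes of the 10-gene set and of 6 related lists, in WT minus EV and c915dup minus EV. Each point is a gene, filled red where limma's adjusted p was under 0.05, and the bar is the median. The medians of the immediate early genes, 0.30 and 0.56, lie to the right of those of the other lists, and the medians of the p53 regulators and of the other p53 targets lie near 0.

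Among the genes most like Plk2 across the 9 libraries, by Pearson's r of log2(FPKM + 1), were the small Maf factor Mafk (0.99), the EGF receptor feedback inhibitor Errfi1 (0.99), the matricellular Ccn1 (0.98) and the zinc finger factor Egr2 (0.98). After the means of the libraries numbered 1 and of the others were removed, Mafk, Ier2, Tiparp and Lima1 were among them, each at 0.99. The group means of Mafk were 9.60 FPKM in EV, 16.9 in WT and 20.5 in c915dup. Among the members r with Plk2 was 0.95 for Plk3, 0.89 for Sesn2, 0.79 for Gdf15, 0.62 for Btg2, 0.52 for Gadd45a, 0.46 for Mdm2, 0.30 for Cdkn1a, -0.20 for Trp53inp1 and -0.74 for Ccng1. Of all tested genes 99.8% had a lower r than Plk3, 85.5% a lower one than Mdm2, 74.3% a lower one than Cdkn1a and 1.91% a lower one than Ccng1. With the means of the number classes removed, r was 0.95 for Plk3, 0.92 for Sesn2, 0.88 for Gdf15, 0.82 for Gadd45a, 0.81 for Btg2, 0.46 for Mdm2, 0.35 for Cdkn1a, -0.41 for Trp53inp1 and -0.92 for Ccng1. These values describe 9 libraries that share their groups and their numbering, so they carry no p.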

How the data were processed

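The values are FPKM as deposited by the authors. The files' headers give no unit, so FPKM is inferred (library sums of 339489 to 358766). Per the submitters' processing notes, CASAVA 1.8, Trimmomatic, FastQC, HISAT2, RSEM and edgeR were used with GRCm38, with no roles given, while BWA, TopHat and Cufflinks appear in the series' design text. A second deposited table held identical values (148608 of 148608, for 16512 genes), and a table of correlations was not used here. The c915dup columns, numbered 1, 3 and 4, were matched to the group and not to single titles.

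Values were taken as log2(FPKM + 1), which understates changes of low genes. Genes that reached 1 FPKM in 3 or more libraries entered 1 fit of all 9 libraries with 3 group means (limma 3.58.1, R 4.3.3, eBayes with trend and robust, two-sided), with Benjamini-Hochberg adjustment over all genes (threshold 0.05). The test was tried on simulated data. Pandas 2.3.3 and matplotlib 3.10.9 under Python 3.11.15 made the tables and figures.

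Deviations of same-numbered libraries from their group means correlated across genes at r = 0.62 to 0.66 for number 1 and at 0.23 to 0.39 for numbers 2 and 3. Libraries with different numbers other than 1 correlated as much, at 0.28 to 0.42. These values set the libraries numbered 1 apart and show no pairing by the other numbers. The replicate block by number was used as an alternative all the same. The members and lists were chosen with earlier results of these data known. The text names the 10 members, up to 4 tested genes per list and comparison with the smallest p, and genes from the 5 most like Plk2 in each measure, of which 1 is not reported here. Genes named beyond these (Trp53 and Cdkn2a among them) were picked for their roles or calls after their values were seen. Alternatives were another pseudocount, no filter, 2 scalings, 2 blocks, no trend, 2 groups only and left-out libraries. Promoters came from RefSeq.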

Additional observations from a re-analysis of the deposited data

Results flagged for a closer look

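Mdm2 differed between groups in how the library numbered 1 stood to the other 2. In WT the library numbered 1 was the lowest, 0.080 below the mean of the others on the log2(FPKM + 1) scale (a difference of -0.080), and in c915dup it was the highest, by 0.15. In EV the 3 libraries lay within 26.6 to 26.7 FPKM. The difference between the groups in this respect was not tested, and its part in the comparison of c915dup with WT was not tested either. Without the 3 libraries numbered 1 the c915dup minus WT difference of Mdm2 was 0.28, beside 0.35 with them.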

How the results depend on the processing

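Of 540 values (10 genes, 3 comparisons and 18 alternatives), 508 kept their direction and their side of the threshold, 28 passed only under the alternative, 0 lost a call and 4 changed sign when 1 library was left out. The sign changes were Btg2 in WT against EV without WT replicate 1 (-0.0057; range over left-out libraries up to 0.19), Trp53inp1 in c915dup against EV without c915dup replicate 3 (0.017; down to -0.17) and against WT without c915dup replicate 1 (-0.023; up to 0.16), and Ccng1 in c915dup against WT without c915dup replicate 3 (0.0028; down to -0.13), none of them a call. Members passing numbered 1 between WT and EV (2 with the replicate block, 3 with the block of libraries numbered 1), 2 between c915dup and EV (4 and 8, and 7 without the libraries numbered 1) and 0 between c915dup and WT (2 and 5, 3 without those libraries, and 1 with each scaling). With 1 library left out they were 1, 2 and 0 in every fit. Those differing between libraries numbered 1 and the others were 5, and 4 to 5 with 1 library left out.

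All genes passing between WT and EV were 42, against 24 with no filter, 27 with only the 2 groups, 83 without libraries numbered 1, 96 with the replicate block and 145 with the block of libraries numbered 1. Between c915dup and EV they were 130, against 66, 63, 403, 227 and 661 in the same order. Between c915dup and WT they were 27, against 10, 14, 349, 137 and 574, and 63 with median-ratio scaling and 54 with quantile normalization. Leaving out 1 library gave 19 to 40, 61 to 111 and 8 to 36. The unfiltered fit tests more genes, and the fits of only 2 groups or with libraries left out have fewer samples. Yet the fit without the libraries numbered 1 called more genes in each comparison. So did the fit without EV replicate 1 between c915dup and WT (36). The causes of these shifts were not tested. Gdf15 and Plk3 rest on the fewest fragments of the members, though their SE of 0.09 each was below that of Gadd45a (0.15). Having 3 libraries a group limits small differences.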

Other observations

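Several relatives and partners of the set were too low to be tested. The p53 relative Trp73 was listed at 0 in every library, and Trp63 lay between 0.67 and 0.99 FPKM. The death genes Pmaip1 and Perp, p53 targets that kill cells or hold epithelia together, reached at most 0.018 and 0.17 FPKM. The polo-like kinase gene Plk5 reached 0.036 FPKM, Btg4 0.39 and the kinase inhibitor gene Cdkn1c 0.14. No direction is given for these 7 genes.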
